A study of Mus musculus with 10 samples.

Results

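Apoe and Apoc1 encode apolipoprotein E and apolipoprotein C-I, proteins of the lipoprotein surface. They were chosen as the genes of those names in the authors' deposited tables of genes that differed between genotypes. Each is represented by 1 probeset, 10560624 for Apoe and 10560618 for Apoc1, so the members are 2 of the 251 genes that the tables name, on arrays with 35556 probesets. Apoc1 stood in the table of tumor macrophages and Apoe in the table of tumor cells. The choice therefore used the genotype difference of Apoc1 in macrophages and that of Apoe in tumor cells. Both of these are described below without a test. The authors' titles call the genes of each table unique to its cell type. The rule behind that word is not known here. If it left out genes that differed in the other cell type, the choice also bore on each member's other genotype difference.

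PyMT-BO1-GFP-Luc is a mouse mammary tumor cell line marked with green fluorescent protein and luciferase, and 100000 of its cells were given into the mammary fat pad. Hosts were wild-type (WT) mice or b3KOM mice, which lack integrin beta3 in cells of the macrophage lineage. Tumors were taken on day 10 and sorted by flow cytometry into tumor cells and tumor-associated macrophages (TAMs) with high CD206, the mannose receptor. TAMs were hybridised to 3 arrays per genotype and tumor cells to 2 arrays per host genotype, 10 in all. The injected line was the same in all hosts and is not itself described as deleted for the integrin. The Cre driver, the age of the mice and the number of animals per array are not stated in the sources used here. P-values therefore measure spread among these samples, part of which may be technical.

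Apolipoprotein E is the ligand through which lipoprotein remnants are taken up by receptors of the LDL receptor family, and macrophages secrete it as they hand cholesterol to lipoproteins. Apolipoprotein C-I is a small exchangeable protein known to hinder that uptake, and apolipoprotein C-II is the cofactor of lipoprotein lipase. In mouse macrophages Apoe, Apoc1, Apoc2 and Apoc4 are known as a cluster under control of the LXR sterol receptors. In the RefSeq annotation (GRCm38.p6, used for names and neighbours) all 4 lie side by side on chromosome 7 in the order Apoc2, Apoc4, Apoc1, Apoe. A read-through gene, Gm44805, joins Apoc4 and Apoc2, and signal from it and from Apoc2 cannot be told apart here. A list of 43 lipid-handling genes was set for comparison, and 3 of them have a named probeset, both members and Apoc2. Apoc2, from the tumor cell table like Apoe, is given beside them.

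The arrays of a cell type were alike across probesets, with Pearson's r of 0.981 to 0.985 among TAMs and 0.990 to 0.993 among tumor cells. Values are log2 expression. The median of the value table, 4.19, serves as a mark of low signal, and all 3 apolipoprotein probesets exceeded it on at least 2 arrays, as did 20246 probesets in all. Of the 25 macrophage markers other than Apoe, 16 have a named probeset, and limma called 16 of 16 higher in TAMs than in tumor cells, against 24.9% of all probesets tested. Of 15 genes listed for epithelial or mammary tumor cells 1 is named, the gap junction gene Gja1. It was lower in TAMs, with a log2 difference of -2.84 ± 0.07 (SE). The sort marker Mrc1 (CD206) and the deleted Itgb3 have no named probeset, so neither the sort nor the deletion was checked.

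Apoe was bright in every TAM array. It measured 12.94, 12.97 and 12.92 on the log2 scale in WT TAMs and 12.99, 12.95 and 13.04 in b3KOM TAMs. These values lay 0.56 to 0.72 log2 units below the brightest probeset of their arrays, close to the upper end of the scale, where real differences can be compressed. In tumor cells the level was 8.91 and 9.07 from WT hosts and 9.53 and 9.80 from b3KOM hosts. Every TAM array was thus above every tumor cell array, and Apoe signal in the sorted tumor cells was well above the table median.

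Apoc1 signal was low. The log2 levels were 5.72, 4.71 and 5.79 in WT TAMs and 4.44, 4.11 and 4.27 in b3KOM TAMs. In tumor cells the probeset read 3.01 and 3.20 from WT hosts and 2.88 and 3.04 from b3KOM hosts. All 4 tumor cell values lay below the table median, so the tumor cell level is near background and has no exact size.

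Apoc2 had log2 levels of 10.36, 10.53 and 9.94 in WT TAMs and 10.16, 10.21 and 10.33 in b3KOM TAMs. Tumor cells from WT hosts read 4.44 and 4.43, just above the table median, and those from b3KOM hosts 5.22 and 5.14. From high to low, the group means of Apoe and Apoc2 ran from the TAMs, whose genotypes overlapped, to tumor cells from b3KOM hosts and then to those from WT hosts. For Apoc1 the order was WT TAMs, b3KOM TAMs and then the tumor cells, whose hosts overlapped.

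**Figure D1:**
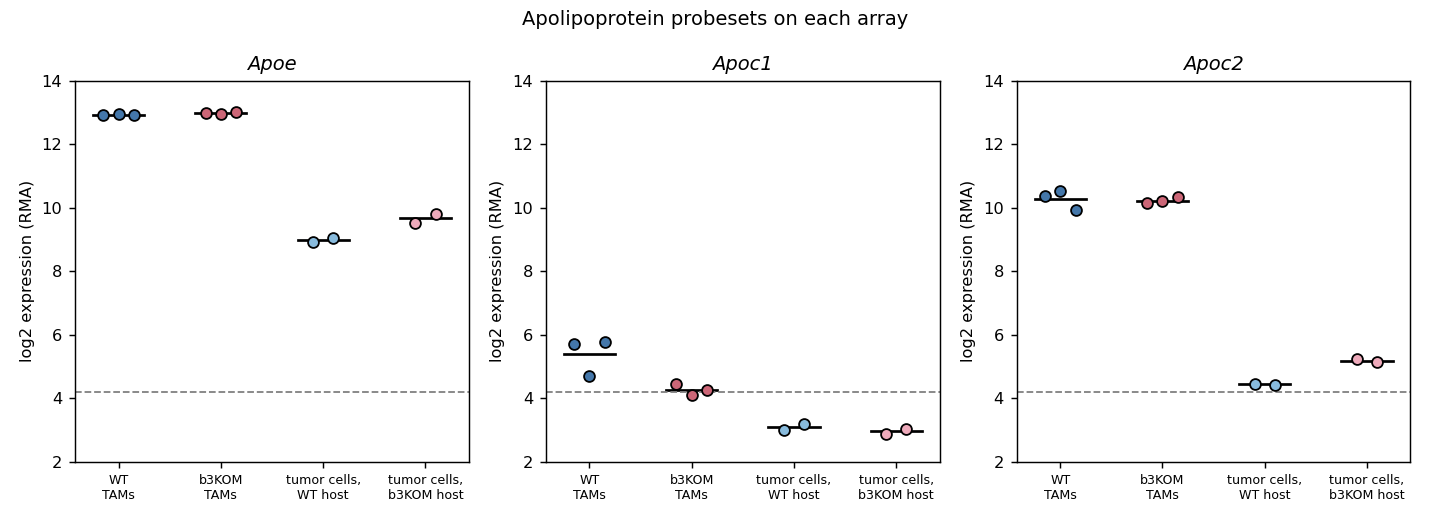
Log2 expression (vertical axis) of Apoe, Apoc1 and Apoc2 on each of the 10 arrays, by group (horizontal axis). Points are arrays, bars are group means and the dashed line is the table median of 4.19. Apoe and Apoc2 separate the tumor cells by host, and Apoc1 separates the TAMs by genotype. The authors' tables picked the genes by these contrasts, so nothing is read from the separation. Of all probesets tested, 17.2% had every tumor cell array from b3KOM hosts above those from WT hosts. For 4.11% every b3KOM TAM array lay below every WT one.

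Both members were higher in TAMs than in tumor cells, a comparison that the choice of genes had not used. Apoe was higher by a log2 difference of 3.64 ± 0.07 (SE), 12.4-fold, with a limma adjusted p of 1.52e-09. An exact two-sided permutation test over arrays gave p of 0.00476 for Apoe, the smallest that 210 arrangements allow. The difference of Apoc1 was 1.80 ± 0.21 (SE), 3.49-fold. Apoc1 passed the filter on low values through its TAM arrays alone, so its p is taken from the limma fit of all probesets without a filter, where the adjusted p was 0.000112. Apoe was higher in 6 of 6 TAM arrays than in any of the 4 tumor cell arrays. Of the filtered probesets, 24.9% were called higher in TAMs, and 20.8% had every TAM array above every tumor cell array. These shares are set beside Apoe only, since Apoc1 passed the filter through its TAM arrays. Without a filter, 6227 of 35556 probesets were called higher in TAMs. The median difference of the filtered probesets was -0.14, and it became 0.03 with cyclic loess scaling, under which 33.3% were called higher. Set against the median of -0.14, the difference of Apoe was 3.78. Because Apoc1 was near background in tumor cells, its difference is no exact size. The Apoe level in TAMs was close to the upper end of the scale, so the Apoe difference is no exact size either.

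By host, the TAM excess of Apoe on the log2 scale was 3.95 in WT mice and 3.32 in b3KOM mice. For Apoc1 it was 2.30 and 1.31. These splits contain the contrasts that chose the genes and are given as values only.

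Apoc2 was higher in TAMs by 5.45 ± 0.11 (SE) log2 units, with a limma adjusted p of 1.77e-09, from a tumor cell level near the table median in WT hosts.

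The macrophage markers differed between cell types by 3.42 to 5.67 log2 units, with a median of 4.75. The difference was above that of Apoe for 15 of the 16 markers, the exception being Lyz2, the macrophage lysozyme, at 3.42. On the linear scale, Apoe in tumor cells was at 6.46% of its TAM level in WT hosts and 9.99% in b3KOM hosts. The markers were at a median of 3.06% (1.61% to 7.82%) and 4.54% (2.29% to 11.2%). Apoe thus lay within the range of the markers in both hosts, near its upper end, with only Lyz2 higher. Its TAM level was close to the upper end of the scale, so its percentages are no exact size.

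**Figure D2:**
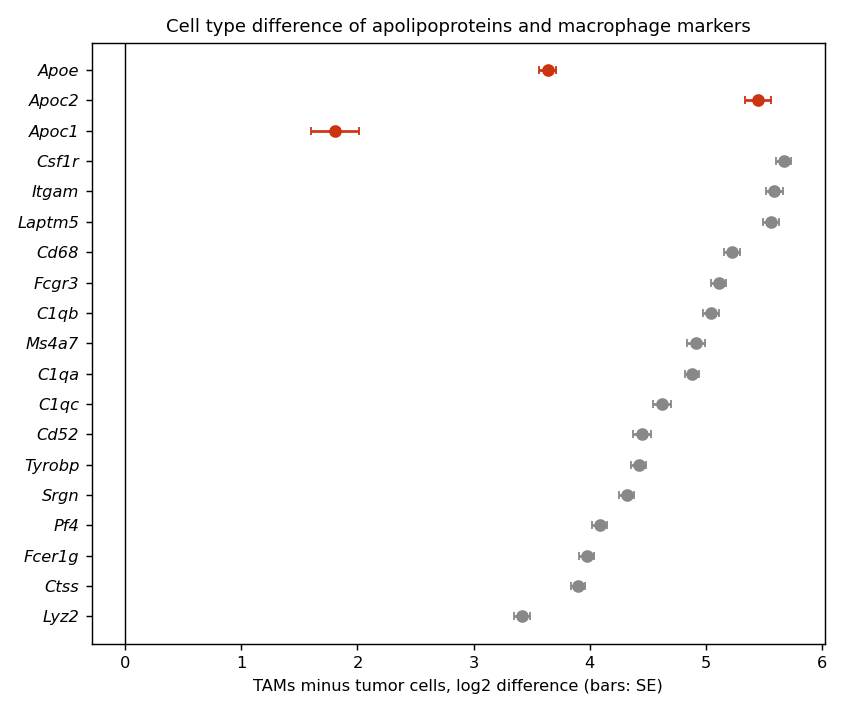
TAMs minus tumor cells, as log2 difference with SE (horizontal axis), for the 3 apolipoproteins (red) and 16 macrophage markers (grey). Apoe at 3.64 lies near the lower end of the markers, and Apoc2 at 5.45 near their upper end. Apoc1 is drawn at 1.80, which is no exact size because its tumor cell values are near background.

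TAMs of the genotypes came from tumors in different hosts. Effects of integrin beta3 loss in the macrophages and of the tumor around them therefore cannot be told apart. Between TAMs of the genotypes, Apoe did not differ detectably. The means were 12.94 ± 0.03 (SD, n = 3) for WT arrays and 12.99 ± 0.05 (SD, n = 3) for b3KOM arrays, which overlapped. The log2 difference was 0.05 ± 0.09 (SE), with a 95% interval from -0.16 to 0.26 and a limma adjusted p of 0.977. In folds this interval runs from 0.892 to 1.20. The Apoe level in TAMs was close to the upper end of the scale, where real differences can be compressed, so a larger change could be missed. Apoc2 had a log2 difference of -0.05 ± 0.14 (SE), an interval from -0.38 to 0.29 and a limma adjusted p of 0.996. Limma called 0 of these 2 genes, against 0.0148% of all probesets, and 0 of the 2 had an unadjusted p under 0.05, against 1300 of 20246. Both come from the tumor cell table, and if unique there means unchanged in TAMs, this outcome was partly set in advance. In bulk samples such as these, fewer cells of a type and less RNA per cell cannot be told apart.

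Apoc1 was lower in b3KOM TAMs, the difference by which it had been chosen. The means were 5.41 ± 0.60 (SD, n = 3) for WT and 4.27 ± 0.16 (SD, n = 3) for b3KOM arrays. The log2 difference was -1.13 ± 0.26 (SE), or 2.19-fold lower. The groups did not overlap, but WT replicate 2 at 4.71 was closer to the highest b3KOM array, 4.44, than to the other WT arrays at 5.72 and 5.79. Without that replicate the difference was -1.48, and over all arrays left out in turn it ran from -1.48 to -0.94. Of all probesets, 4.11% had every b3KOM TAM array below every WT one, a share from which nothing is read here because the contrast chose the gene. One of the b3KOM arrays, at 4.11, lay below the table median, and the b3KOM mean is near it, so the difference is no exact size. The authors' deposited table gives Apoc1 a log2 fold change of 1.04 for WT against b3KOM with a p-value of 0.00811, the 93rd smallest of 122. That is smaller than the 1.13 found from the array values, so the deposited table may rest on values processed in another way.

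The b3KOM minus WT differences of the macrophage markers in TAMs ran from -0.11 to 0.09, with a median of 0.01. Limma called 0 of 16, against 0.0148% of all probesets tested, and 0 had an unadjusted p under 0.05, against 1300 of 20246. For 1 of the 16 every b3KOM array lay below every WT one, against 4.11% of all probesets tested, and for 0 above. The markers come from the tumor cell table, so the limit set by the word unique holds for them too. The markers' median level was 11.84 to 11.93 on the WT arrays and 11.82 to 11.90 on the b3KOM arrays. Gja1, from the list of epithelial or mammary tumor genes, had mean levels of 7.38 in WT and 7.85 in b3KOM TAMs, a difference of 0.47 ± 0.09 (SE). This contrast put Gja1 in the TAM table, so it was not tested. WT replicate 2, the lowest WT array for Apoc1, was also the lowest WT array for the marker median and the highest for Apoe and Apoc2.

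Between tumor cells of the hosts, which asks whether the same injected cells differ with the host's genotype, Apoc1 did not differ detectably. The means were 3.11 ± 0.13 (SD, n = 2) from WT hosts and 2.96 ± 0.12 (SD, n = 2) from b3KOM hosts, and the arrays overlapped. The log2 difference was -0.15 ± 0.32 (SE), with a 95% interval from -0.89 to 0.59 and a limma adjusted p of 1. That SE pools the spread of all 4 groups, of which WT TAMs had the widest for Apoc1, an SD of 0.60. On tumor cell arrays alone the SE was 0.12, with a limma adjusted p of 0.953. In the fit of all arrays limma called 0.00988% of all probesets in this comparison, and 503 of 20246 had an unadjusted p under 0.05, Apoc1 not among them. With all 4 values near background, a change of Apoc1 in tumor cells could not have been measured well. Apoc1 comes from the TAM table, and if unique there means unchanged in tumor cells, this outcome too was partly set in advance.

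Apoe was higher in tumor cells from b3KOM hosts, by which it had been chosen. The means were 8.99 ± 0.11 (SD, n = 2) from WT hosts and 9.67 ± 0.19 (SD, n = 2) from b3KOM hosts. The log2 difference was 0.68 ± 0.11 (SE), or 1.60-fold. The arrays did not overlap, as was so for 17.2% of all probesets in that direction. With 1 tumor cell array left out the difference stayed between 0.54 and 0.81. Apoc2 had a similar difference of 0.74 ± 0.18 (SE), from 4.44 ± 0.01 (SD, n = 2) to 5.18 ± 0.06 (SD, n = 2). The authors' deposited table gives log2 fold changes for WT against b3KOM of -0.68 for Apoe, with a p-value of 0.00874 (113th smallest of 130), and -0.73 for Apoc2, with a p-value of 0.00136 (13th). The p-values of the TAM and tumor cell tables end at 0.00989 and 0.00996, and each member lies not far inside its limit.

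Macrophage markers moved with Apoe and Apoc2 on these arrays. All 16 named markers had both b3KOM host arrays above both WT host arrays, with log2 differences from 0.45 to 1.17 and a median of 0.65. The difference of Apoe, 0.68, was above that of 10 of them. The highest was that of Pf4, a chemokine of platelets and macrophages. The authors had picked these markers by the same contrast on the same arrays, so they are given as values with no test, and their direction is no independent evidence. The markers' median level was 6.91 and 6.85 on the WT host arrays and 7.51 and 7.67 on the b3KOM host arrays, and the dimmest marker, Itgam, had means of 4.51 and 5.08. Set against the WT host mean, the b3KOM host arrays stood 0.54 and 0.81 higher for Apoe, 0.79 and 0.70 higher for Apoc2, and 0.56 and 0.74 higher for the median marker. Apoe and the markers were thus higher on b3KOM replicate 2 than on replicate 1, and Apoc2 the other way. The part of macrophage RNA in the tumor cell values of Apoe was not tested.

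**Figure D3:**
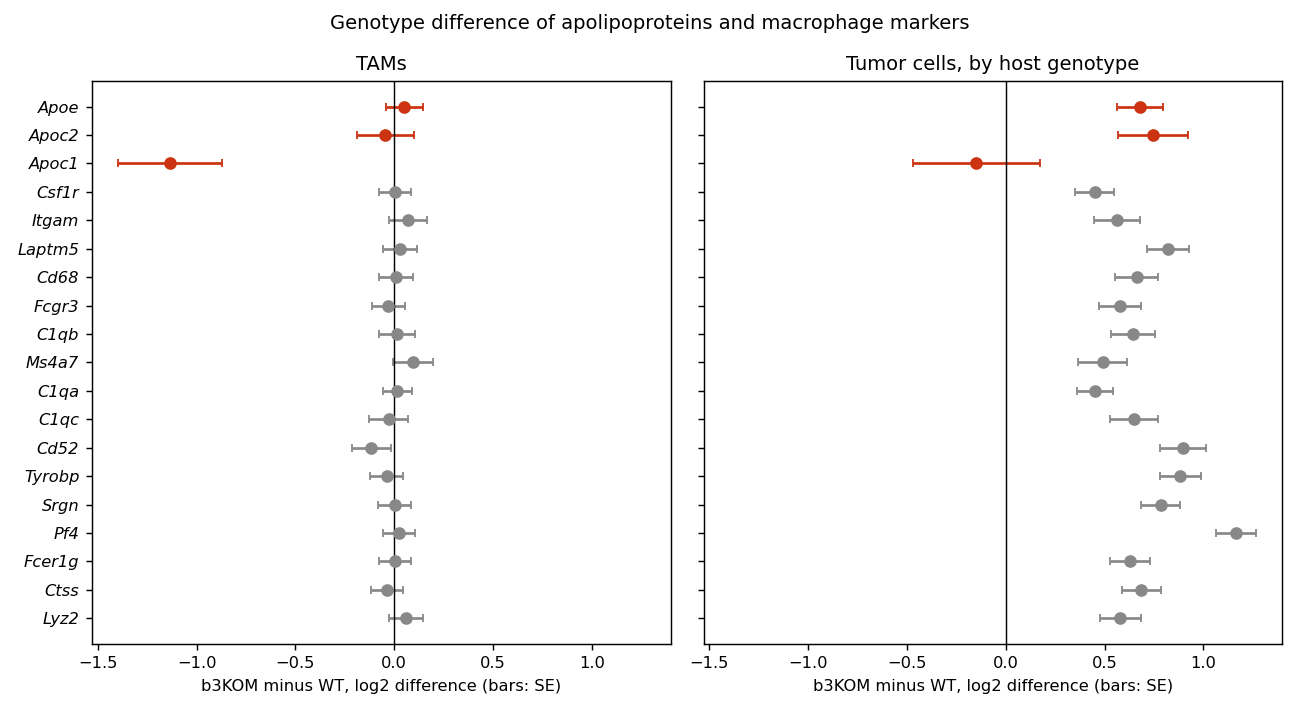
b3KOM minus WT, as log2 difference with SE (horizontal axes), in TAMs (left) and in tumor cells by host (right), for the 3 apolipoproteins (red) and 16 macrophage markers (grey). In tumor cells Apoe and Apoc2 lie among the markers at 0.68 and 0.74 and Apoc1 at -0.15. In TAMs Apoc1 lies at -1.13. It is the only gene drawn that stands in the authors' TAM table, whose contrast chose it, and the others stand in the tumor cell table.

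The genotype difference in TAMs minus that in tumor cells was -0.63 ± 0.15 (SE) for Apoe, -0.98 ± 0.42 for Apoc1 and -0.79 ± 0.23 for Apoc2 on the log2 scale. Each contains the contrast that chose the gene, so none was tested.

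The named genes most like each member were found by Pearson's r over the 10 arrays after each cell type's mean was taken away, among 143 named genes. For Apoe they were Fcer1g, an Fc receptor chain, with r of 0.975, Laptm5, a lysosomal protein of leukocytes, with 0.973, Bcl2a1b with 0.969, the signaling adaptor Tyrobp with 0.966 and Bcl2a1a with 0.962. The Bcl2a1 genes are nearly identical anti-apoptotic copies whose probesets may share signal. All 5 come from the tumor cell table, as Apoe does. For Apoc1 they were Ccdc6 with r of 0.893, Gde1 with 0.877, Trp53bp2 with 0.872, Mgst2, a microsomal glutathione transferase, with 0.831 and Ublcp1 with 0.818. All 5 come from the TAM table. The likeness in each case rests largely on the contrast by which the tables were made, and the arrays are shared.

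With cell type means left in, the genes most like Apoe were Bcl2a1b, Tyrobp, Fcer1g, the chemokine Cxcl2 and Bcl2a1d, each with r of 0.999 or above. For Apoc1 they were Gde1 with 0.966, Tcp11l2 with 0.952, Nlrc5, the activator of MHC class I genes, with 0.950, B9d2 with 0.925 and Trex1, a DNA exonuclease, with 0.919. Here too the genes like Apoe come from the tumor cell table and those like Apoc1 from the TAM table. With means left in, r for Apoe rests mainly on the difference between cell types. The members shared no gene among their first 5 in either form. That was largely set by the tables that named the genes, so nothing is read from it.

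**Figure D4:**
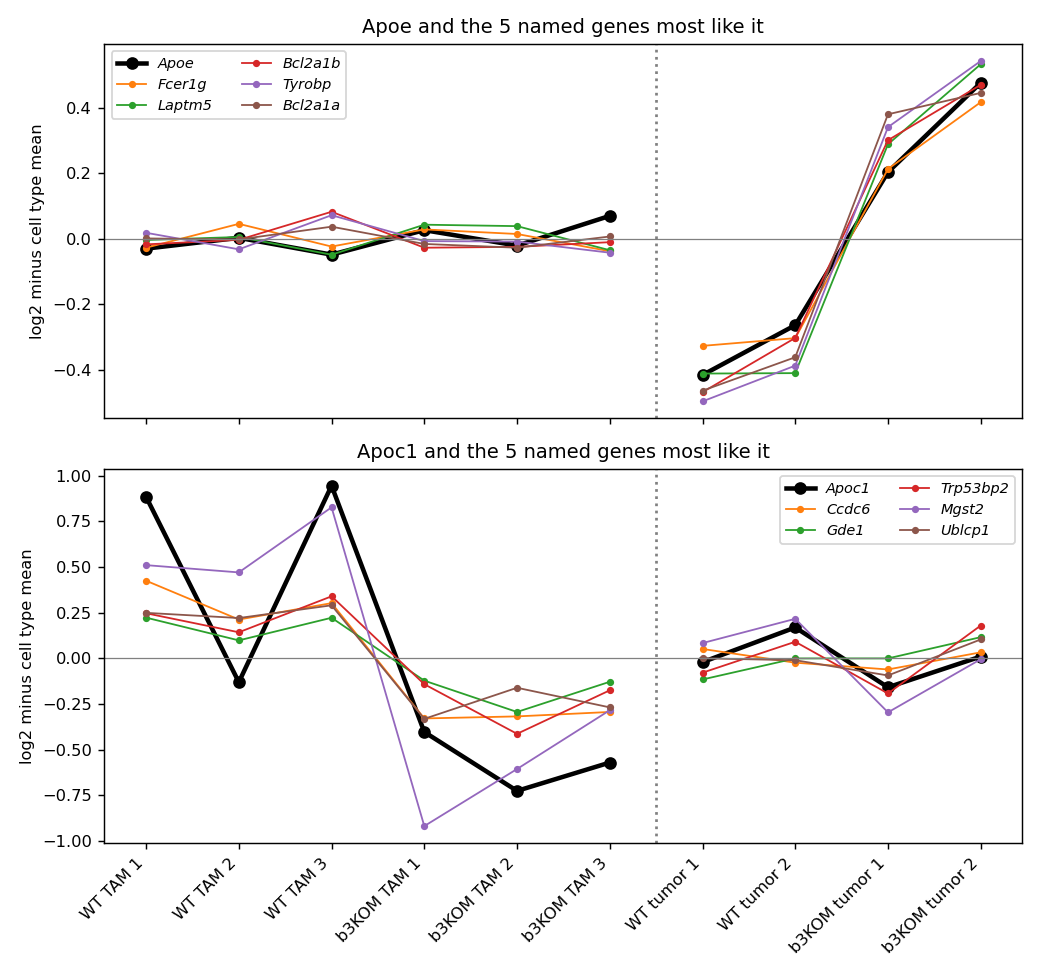
Log2 values minus the cell type mean (vertical axes) on each array (horizontal axis) for Apoe (upper, black) and Apoc1 (lower, black) with the 5 named genes most like each. Lines join arrays for legibility only. Apoe and its genes vary mainly between tumor cell arrays of the hosts, and Apoc1 and its genes mainly between TAM genotypes, with Apoc1 low on WT replicate 2.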

How the data were processed

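The deposited array values are log2 expression, for which the submitters' processing notes name RMA, a method that commonly scales arrays to 1 shared distribution, and Affymetrix Expression Console. Versions, array model and genome build are not stated there. RNA (50 ng per sample, per the labels) was amplified before hybridisation, which can add spread to dim probesets. The authors' deposited tables (122 and 130 rows) give, per the file headers, a log fold change read here as log2, a mean, a test statistic (t, taken as a score) and an unadjusted p-value. Probesets take their names only from these tables.

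Values were fitted with limma 3.58.1 in R 4.3.3 (lmFit and eBayes), with 1 mean for each of 4 groups on all 10 arrays, since single groups hold 2 or 3. The fit had 6 residual and 2.35 prior degrees of freedom and covered the 20246 probesets above the table median of 4.19 on at least 2 arrays. Benjamini-Hochberg adjustment ran over all of them, with calls under 0.05. The script was tested on simulated data. The number of arrays limits the precision. The spread is shared by cell types, although weights estimated per array were 0.49 to 0.89 for TAMs and 1.47 to 1.75 for tumor cells.

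Members and gene lists were chosen with earlier results of these data known. Named genes are the members, the 5 named genes most like each, and list members with a probeset. Lists for fibroblasts, endothelium, neutrophils, B cells, dendritic cells and adipocytes had 0 named genes, and the T and NK cell list had 1, Cxcr3, lower in TAMs than in tumor cells (-0.86). Of 251 gene names, 215 are current RefSeq symbols.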

Additional observations from a re-analysis of the deposited data

How the results depend on the processing

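Alternatives were no filter, a stricter filter (1 log2 unit above the median on at least 3 arrays), cyclic loess scaling, arrays of 1 cell type alone, an intensity trend with robust fitting, array weights, and leaving out each array. Under all of them that gave a value, the 4 tested and 2 described differences of the members kept their direction, and the tested ones their side of the threshold. The filters, the trend with robust fitting and the arrays of 1 cell type alone leave a difference of group means as it is. Only scaling, array weights and leaving out arrays could move it. The 2 described differences chose the genes and their groups did not overlap, so leaving out an array could not reverse them. The cell type difference ran from 3.57 to 3.79 for Apoe and from 1.71 to 1.98 for Apoc1. The genotype difference ran from 0.03 to 0.07 for Apoe in TAMs, from -0.24 to -0.05 for Apoc1 in tumor cells, from -1.48 to -0.94 for Apoc1 in TAMs and from 0.54 to 0.81 for Apoe in tumor cells. The stricter filter removed Apoc1 and gives no value for it. The number of probesets called between genotypes did depend on the setting. In TAMs it was 3, against 9 with the stricter filter, 9 with trend and robust fitting, 0 on TAM arrays alone, and 0 to 5 with 1 array left out. In tumor cells it was 2, against 0 without a filter, 8 with the stricter filter, 0 on tumor cell arrays alone, 17 with trend and robust fitting, 30 with array weights, and 0 to 2 with 1 array left out. The cause was not tested. Of the calls between cell types, 37.7% were higher in TAMs, and 51.6% with cyclic loess scaling. Leaving out a tumor cell array leaves 1 in its group, which is then assumed to vary like the others. No paired analysis was possible because the labels give the groups no shared replicate numbers. Low signal limits Apoc1, and nearness to the upper end of the scale limits Apoe in TAMs.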

Other observations

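Saa4, a serum amyloid A protein carried on high-density lipoprotein, is named in the authors' deposited tumor cell table and was singled out after its values were seen. Its probeset did not pass the filter, with mean log2 levels of 2.39 in WT TAMs, 2.48 in b3KOM TAMs, 2.17 in tumor cells from WT hosts and 2.65 in those from b3KOM hosts, all near background.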
